A study of Arabidopsis thaliana with 4 samples.

Results

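LHCB4.3, RCA and PORB are nuclear genes whose products work in the chloroplast. They are 3 of the 13355 Arabidopsis thaliana genes that the annotation used here pairs with an array probe set of their own. They were taken by name, each through its brightest probe set paired with a single gene, and each had 1 such probe set and 0 probe sets shared with other genes. They were chosen by their measured log2 intensity differences between the groups compared here. Their own differences are therefore given as a description, with no test, and they support no statement about photosynthesis genes in general.

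Total RNA came from dissected shoot apices of wild-type Col-0 plants, with 1 array per sample. The SD30_LD7 group had grown for 30 short days and was then moved to long days for 7 more days (2 samples). The SD30 group had grown for 30 short days only (2 samples). All plants were therefore of the same genotype and had the same short-day growth. The shifted plants were also older at harvest, so day length and age cannot be told apart. No hour of harvest is stated in the labels, so a difference in hour between the groups cannot be told apart from these either. The labels do not state whether plants for each sample were sown separately, so errors and p-values below cover the spread between these samples alone, which may be technical. Each SE of a log2 difference and each p-value also draws on the spread of other probe sets of like intensity, not only on the gene's own arrays. An apex holds the meristem and its youngest leaves, and in such a sample fewer cells of a type and less RNA per cell cannot be told apart.

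Antenna proteins hold the chlorophyll that gathers light for the photosystems, and those of the LHCB4 type, also called CP29, are minor antennae of photosystem II. Rubisco activase, encoded by RCA, frees Rubisco of bound sugar phosphates so that the enzyme can fix carbon dioxide. PORB encodes a light-dependent protochlorophyllide oxidoreductase, which carries out a late step of chlorophyll synthesis. All 3 proteins are made in the cytosol and imported into the plastid.

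The authors' intensities are linear values scaled to a common mean on each array, with array medians of 207 and 211 for SD30_LD7 and 213.9 and 220.5 for SD30. Arrays of the same group correlated at r = 0.987 in SD30_LD7 and 0.985 in SD30 across 15922 probe sets, and arrays of different groups at 0.942 to 0.948. The actin control, whose 3' to 5' signal ratio reflects how intact the RNA was, had ratios of 8.27 and 4.64 in SD30_LD7 and 6.51 and 5.72 in SD30, and these ranges overlapped. A gene is called measured here if the annotation pairs a probe set with that gene alone. The annotation leaves 8730 probe sets unnamed, so listed genes not measured in this sense may still be on the array. Of 6 meristem markers, CLV3 and ULT1 were measured, with a summed intensity of 1128.9 and 1250.8 in SD30_LD7 and 1092.6 and 1089.9 in SD30. ULT1 is the largest part of each sum, with 1056.3 and 1162.9 in SD30_LD7 and 1019.7 and 986.4 in SD30. CLV3, which marks the stem cells of the meristem, had intensities of 72.6 and 87.9 in SD30_LD7 and 72.9 and 103.5 in SD30. STM, WUS, KNAT1 and CLV1 of that list and the vascular markers were not analysed here.

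LHCB4.3 was higher after the shift, whereas PORB and RCA were lower. LHCB4.3 had intensities of 435.3 and 413.1 in SD30_LD7 and of 126.7 and 131.5 in SD30. Both shifted arrays thus lay far above both short-day arrays, and the values within each group lay close together. The means were 424.2 ± 15.7 in SD30_LD7 and 129.1 ± 3.39 in SD30 (SD, n = 2 each), a log2 difference of 1.72 ± 0.16 (SE) or 3.29-fold. Across the 4 pairings of a shifted with a short-day array, the log2 difference ran from 1.65 to 1.78. Of the 15922 probe sets tested, 98 (0.616 percent) had a larger rise.

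PORB had intensities of 3102.9 and 3107.3 in SD30_LD7 and of 5661.7 and 5118.1 in SD30. Both shifted arrays lay below both short-day arrays, and they differed from each other by less than the short-day arrays did. The means were 3105 ± 3.11 in SD30_LD7 and 5389.9 ± 384 in SD30 (SD, n = 2 each). The log2 difference was -0.79 ± 0.11 (SE), so that SD30 was 1.73-fold above SD30_LD7, and the 4 pairings ran from -0.87 to -0.72. A larger fall was seen for 925 probe sets, or 5.81 percent of those tested.

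RCA had intensities of 3444.4 and 3327.5 in SD30_LD7 and of 5410.2 and 3785.5 in SD30. The shifted arrays were again below both short-day arrays, but the short-day arrays differed widely from each other, with replicate 1 above replicate 2 by 0.52 on the log2 scale. The means were 3386 ± 82.7 in SD30_LD7 and 4598 ± 1149 in SD30 (SD, n = 2 each). The log2 difference was -0.42 ± 0.15 (SE), and the pairings ran from -0.70 to -0.14. This SE is smaller than the SD of 0.26 between the replicate log2 values of RCA. For LHCB4.3 and PORB that SD was 0.046 and 0.073, below their SE. A larger fall was seen for 2059 probe sets, or 12.9 percent.

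**Figure D1:**
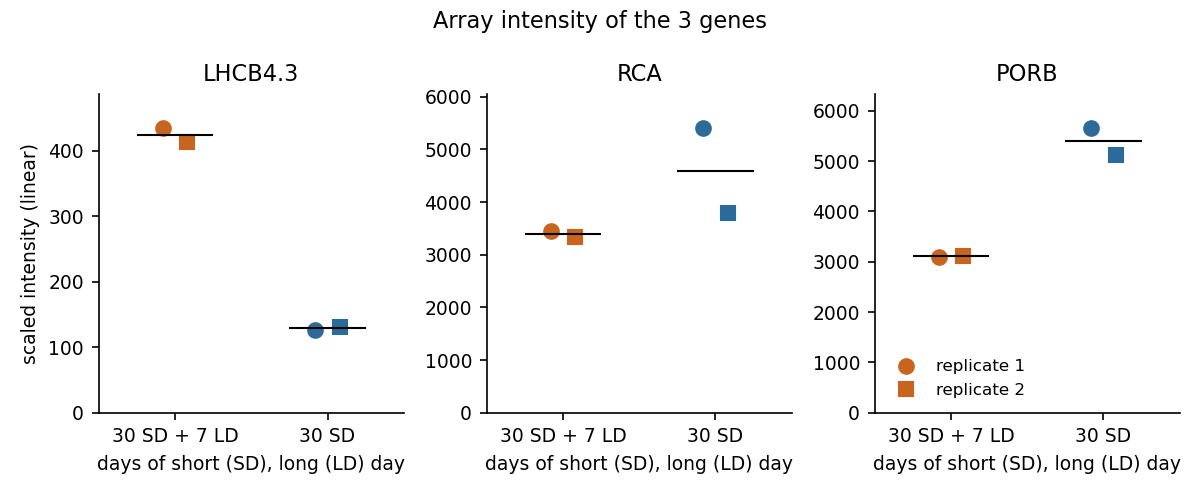
Scaled array intensity (linear axis from 0) of LHCB4.3, RCA and PORB in apices of 30 short days plus 7 long days (left in each panel) and of 30 short days (right). Points are single arrays and lines are group means (n = 2 each). LHCB4.3 is higher after the shift on both arrays, PORB and RCA are lower, and the short-day arrays of RCA stand apart from each other at 5410.2 and 3785.5.

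The arrays of the groups did not overlap for any of the 3 genes. Such a separation is common with 2 arrays a group. It was seen in 54.5 percent of all probe sets tested, in 27.6 percent with the shifted arrays higher and in 26.9 percent with them lower. The median log2 difference of all probe sets was -0.0021, with quartiles of -0.20 and 0.17, so RCA lay beyond the lower quartile, and PORB and LHCB4.3 lay further out.

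**Figure D2:**
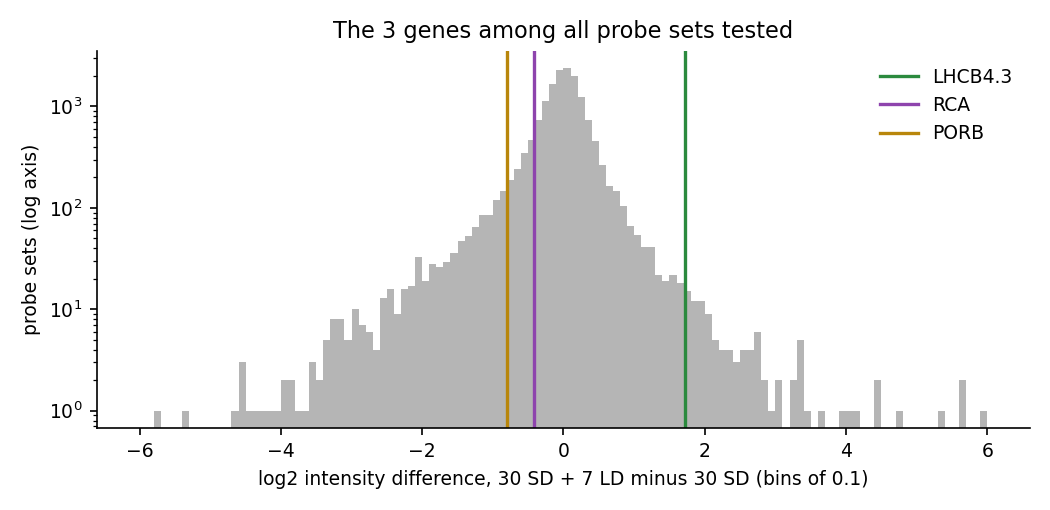
Number of probe sets (log axis) by log2 intensity difference, 30 short days plus 7 long days minus 30 short days, for the 15922 probe sets tested, in bins of 0.1. Vertical lines mark LHCB4.3 at 1.72, RCA at -0.42 and PORB at -0.79. LHCB4.3 lies in the thin upper tail, and RCA lies on the shoulder of the main peak.

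Leaving out 1 array averages some of the pairings given above, so it is no separate check of the differences. LHCB4.3 and PORB kept these sizes when any 1 array was left out. LHCB4.3 had 1.68 to 1.75 and PORB had -0.87 to -0.72. RCA depended on the short-day arrays. Without SD30 replicate 1 its log2 difference was -0.16, and without SD30 replicate 2 it was -0.68. Without SD30_LD7 replicate 1 or 2 it was -0.44 or -0.39.

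**Figure D3:**
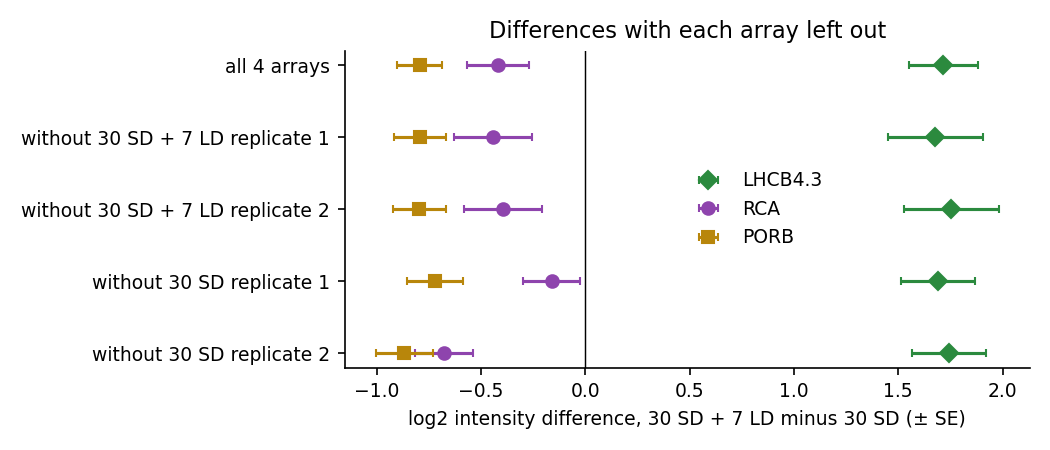
Log2 intensity difference (± SE of the fit), 30 short days plus 7 long days minus 30 short days, of the 3 genes with all 4 arrays and with each array left out. LHCB4.3 stays between 1.68 and 1.75 and PORB between -0.87 and -0.72, while RCA moves between -0.68 and -0.16 with the short-day array that is kept.

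The other genes of the same pathways were taken from 4 lists of 99 nuclear genes, of which the annotation names 20, the 3 genes above included. Of the other 17 genes, limma called 0 higher and 3 lower at an adjusted p below 0.05, and 14 were not called. At an unadjusted p below 0.05 it gave 0 higher and 7 lower, against 12.9 percent higher and 13.8 percent lower over all probe sets tested. None of the 3 lower calls held with no filter on dim probe sets, with no intensity trend in the fit or with a 40th percentile floor. At the adjusted threshold 15.0 percent of all probe sets were called, 6.80 percent higher and 8.20 percent lower. The 3 lower calls are 17.6 percent of the 17 genes, and the 17 had a median log2 difference of -0.24, with 15 below 0 and 2 above. Of all probe sets tested, 50.3 percent were below 0. After centring the arrays on their medians 13 of the 17 were below 0, and after quantile normalization 14 were. Without SD30 replicate 1, 11 were below 0 and 6 above. Arrays of the groups did not overlap for 9 of the 17 (52.9 percent), all with the shifted arrays lower. Over all probe sets tested this was 26.9 percent with the shifted arrays lower and 27.6 percent with them higher.

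LHCB4.3 has 2 close relatives in the genome that encode the same kind of antenna protein, and the test called neither of them. LHCB4.1 had intensities of 8231.6 and 7461.0 in SD30_LD7 and of 10100.1 and 8490.1 in SD30, a log2 difference of -0.24 ± 0.13 (SE, limma adjusted p = 0.29). LHCB4.2 had 4445.9 and 3758.5 in SD30_LD7 and 5034.5 and 4337.3 in SD30, with -0.19 ± 0.13 (limma adjusted p = 0.37). The LHCB4.1 arrays did not overlap and those of LHCB4.2 did. Both had differences below 0, while LHCB4.3 was 3.29-fold higher on the same arrays; the difference between the genes was not tested. Of 21 genes in the antenna list, the 3 are the only ones that the annotation pairs with a probe set of their own. The major antenna genes of the LHCB1 and LHCB2 types were not analysed here.

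In the carbon fixation list RCA was measured beside PRK and SBPASE. PRK encodes phosphoribulokinase, which makes the sugar that Rubisco uses. It had intensities of 1697.1 and 1574.4 in SD30_LD7 and of 2338.4 and 1651.2 in SD30, with a log2 difference of -0.27 ± 0.15 (limma adjusted p = 0.28). As for RCA, its short-day replicate 1 was well above replicate 2, by 0.50 on the log2 scale, and here the groups overlapped. SBPASE, for sedoheptulose bisphosphatase of the same cycle, had 1787.1 and 1706.8 in SD30_LD7 and 1706.9 and 1509.8 in SD30. Its log2 difference was 0.12 ± 0.11 (limma adjusted p = 0.53), so neither of these genes was called and they lay on opposite sides of 0.

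Chlorophyll synthesis was the best covered pathway, with 8 of 25 listed genes measured, PORB among them. HEMA2, for a glutamyl-tRNA reductase at the entry of the pathway, had 276.8 and 251.1 in SD30_LD7 and 255.6 and 201.6 in SD30, a log2 difference of 0.22 ± 0.18 that was not called (limma adjusted p = 0.50). GSA1, the aminotransferase gene of the following step towards aminolevulinic acid, fell. It had 1513.0 and 1340.1 in SD30_LD7, below 1912.3 and 1746.0 in SD30, with a log2 difference of -0.36 ± 0.11 (limma adjusted p = 0.045). This call was close to the threshold and was lost whichever array was left out (0.064 to 0.27) and with median centring (0.11). HEMB1, which acts on aminolevulinic acid, had -0.099 ± 0.10 and was not called (limma adjusted p = 0.61).

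HEME1 and HEME2 encode uroporphyrinogen decarboxylases, which stand before the branch towards haem and chlorophyll. HEME1 fell, with intensities of 734.7 and 825.3 in SD30_LD7 and of 1434.7 and 1103.3 in SD30. Its log2 difference of -0.69 ± 0.13 (limma adjusted p = 0.0039) was close to that of PORB. It was not called without SD30 replicate 1 (0.083) or SD30_LD7 replicate 1 (0.054). HEME2 had 1163.8 and 1295.3 in SD30_LD7 and 1487.6 and 1527.0 in SD30, with -0.30 ± 0.11, and was not called (limma adjusted p = 0.086). On the chlorophyll branch, CHLI2, for a subunit of magnesium chelatase, had 445.2 and 412.7 in SD30_LD7 and 670.6 and 517.7 in SD30. Its log2 difference of -0.46 ± 0.15 just missed the threshold (limma adjusted p = 0.054). CHLM, for the methyltransferase that follows, had -0.058 ± 0.11 with overlapping groups (limma adjusted p = 0.80). Without PORB, the genes of this pathway ranged from HEMA2 at 0.22 to HEME1 at -0.69, with a median of -0.30 over the 7. PORA and PORC were not analysed here.

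Of 34 listed genes of the photosystems, electron transport and ATP synthase, 6 were measured and all 6 had differences below 0. PSAE-1, a stromal subunit gene of photosystem I, fell, with 4909.1 and 4220.0 in SD30_LD7 and 6851.8 and 5542.4 in SD30. Its log2 difference was -0.44 ± 0.13 (limma adjusted p = 0.047). This call held when SD30_LD7 replicate 1 was left out (0.047). It was lost when any other array was (0.10 to 0.38), and with median centring (0.13). The photosystem II gene PSBW had -0.33 ± 0.12, the ATP synthase gene ATPC1 -0.30 ± 0.13 and the photosystem I gene PSAN -0.22 ± 0.15, and none of these was called (limma adjusted p = 0.11, 0.15 and 0.37). PSBY and PSB27, both of photosystem II, had -0.031 ± 0.12 and -0.017 ± 0.16. PSB27 turned to 0.019 after quantile normalization, and PSBY and PSB27 to 0.024 and 0.038 after median centring. Without SD30 replicate 1, PSAN, PSBY and PSB27 turned to 0.0077, 0.085 and 0.24. The 18 listed light and plastid regulators, HY5 and GLK1 among them, were not analysed here.

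**Figure D4:**
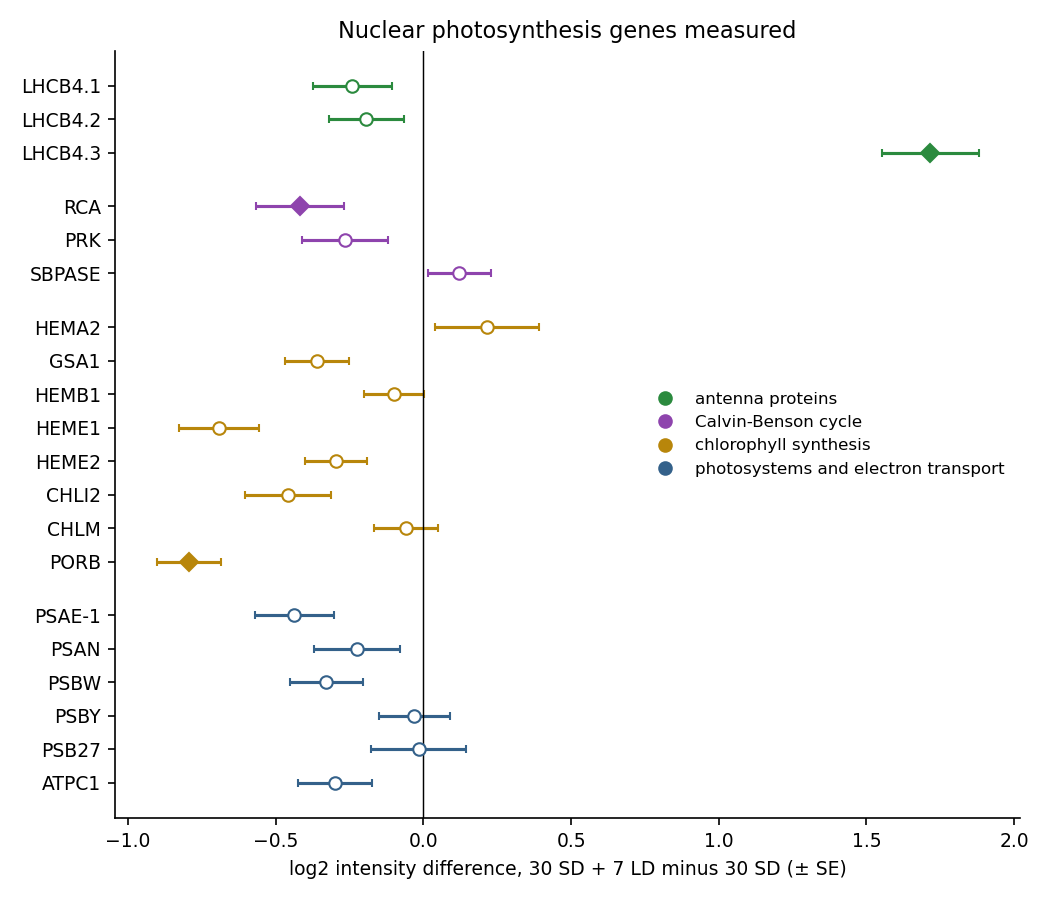
Log2 intensity difference (± SE of the fit, n = 2 arrays a group), 30 short days plus 7 long days minus 30 short days, of the 20 nuclear photosynthesis genes measured, coloured by list. Filled diamonds are LHCB4.3, RCA and PORB and open circles the other 17 genes. LHCB4.3 lies at 1.72, and the others lie between -0.79 and 0.22.

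The short-day arrays were not alike for these genes. SD30 replicate 1 was above replicate 2 for 17 of the 20 genes, with a median of 0.24 on the log2 scale, against 45.3 percent of all probe sets and a median of -0.026. In SD30_LD7 replicate 1 was the higher for 16 of the 20 (median 0.11), against 48.2 percent of all probe sets. LHCB4.3 was among the exceptions in SD30, at -0.054, and PORB had 0.15 there. Without SD30 replicate 1 limma called 0 of the other 17 genes and their median was -0.085, and without SD30 replicate 2 it called 1 and the median was -0.33. Without SD30_LD7 replicate 1 or 2 it called 2 or 1. The source of the difference between the short-day arrays was not tested.

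**Figure D5:**
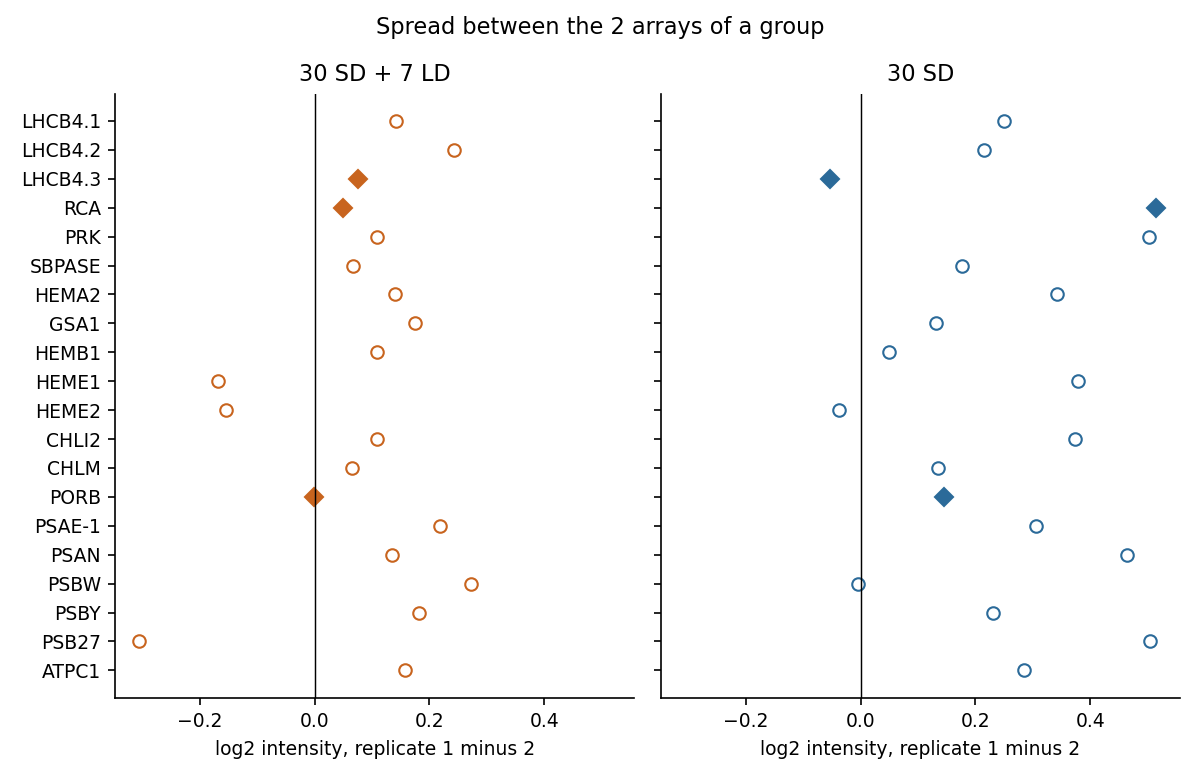
Difference in log2 intensity between replicate 1 and replicate 2 of each group for the 20 nuclear photosynthesis genes, in 30 short days plus 7 long days (left) and 30 short days (right). Points to the right of 0 are higher in replicate 1, as for 16 genes after the shift and 17 in short days. RCA is at 0.050 after the shift and 0.52 in short days.

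Markers of epidermal cell types were measured for 4 of 6 listed genes. These genes did not move together. The stomatal lineage gene SPCH fell, with a log2 difference of -0.57 ± 0.15 (limma adjusted p = 0.026). MUTE, which acts after it, was below the floor set on low intensities on all 4 arrays. The trichome gene TRY had 181.3 and 167.7 in SD30_LD7 and 153.2 and 136.3 in SD30, and its log2 difference of 0.27 ± 0.20 was not called (limma adjusted p = 0.44). FMA, of guard cell formation, had 0.14 ± 0.29 and was not called (limma adjusted p = 0.82). The median of the 3 tested was 0.14. The summed intensity of the 4 genes was 501.1 and 523.5 in SD30_LD7 and 657.7 and 575.8 in SD30, and SPCH is the largest part of each sum. Whether the fall of SPCH has a part in the lower values of PORB and RCA was not tested.

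The genes whose pattern was most like each of the 3 were those with the smallest mean absolute difference from it over the 4 arrays, after each gene was centred on its own mean log2 value. For LHCB4.3 these were SAP, AT1G22160 and AT5G64870, at distances of 0.036, 0.055 and 0.061. SAP, or STERILE APETALA, is needed for flower development. It had 75.9 and 76.7 in SD30_LD7 and 20.5 and 10.8 in SD30, with both SD30 arrays below the floor of 23.5. Its distance and its place in this order therefore rest on the floor, and SD30_LD7 was at least 3.25-fold higher. AT1G22160 had 596.7 and 594.3 in SD30_LD7 and 185.8 and 205.9 in SD30, a log2 difference of 1.61 ± 0.14. AT5G64870 had 74.5 and 79.0 in SD30_LD7 and 23.8 and 25.7 in SD30, close to the floor.

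For PORB the nearest were AT1G19540, AT2G20100 and AT1G54410, at distances of 0.014, 0.015 and 0.022. AT1G54410, also named HIRD11, encodes a small dehydrin, and had 3041.0 and 3032.5 in SD30_LD7 and 5326.5 and 5026.5 in SD30. AT1G19540 had 372.6 and 368.2 in SD30_LD7 and 656.8 and 605.5 in SD30, and AT2G20100 had 124.8 and 122.2 in SD30_LD7 and 226.3 and 200.5 in SD30. All 3 shared with PORB a close pair of shifted arrays and a slightly higher short-day replicate 1.

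For RCA the nearest were NdhL, AT4G15810 and OTP43, at distances of 0.021, 0.025 and 0.034. NdhL encodes a subunit of the chloroplast NADH dehydrogenase-like complex, and had 105.2 and 99.8 in SD30_LD7 and 157.3 and 114.2 in SD30. OTP43, which is named for organelle transcript processing, had 104.6 and 102.9 in SD30_LD7 and 170.3 and 110.5 in SD30. AT4G15810 had 53.3 and 53.2 in SD30_LD7 and 83.7 and 56.5 in SD30. In all 3, as in RCA, SD30 replicate 1 stood above the other arrays.

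In the TAIR10.1 gene table RCA and LHCB4.3 lie on the same chromosome with 44 protein-coding genes between them, and their differences had opposite signs. Taken on each side of the 3 genes, a choice made after the data were seen, were the nearest genes both measured and tested, 6 genes. Of these limma called 2, against 15.0 percent of all probe sets tested. PORB lies between AT4G27435 and AT4G27450, and these moved in opposite directions. AT4G27450 had 5562.5 and 5426.4 in SD30_LD7 and 3146.8 and 3696.2 in SD30 and rose, by 0.69 ± 0.12 (limma adjusted p = 0.0016, or 0.077 without SD30 replicate 1). AT4G27435 fell, with 45.3 and 77.6 in SD30_LD7 and 122.3 and 157.9 in SD30. Its log2 difference was -1.23 ± 0.30 (limma adjusted p = 0.017, or 0.058 with no intensity trend). That call was lost without SD30_LD7 replicate 1 (0.13), SD30 replicate 1 (0.088) or SD30 replicate 2 (0.19).

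Beside LHCB4.3, the adjacent AT2G40110 had 220.6 and 305.9 in SD30_LD7 and 201.5 and 151.1 in SD30, a log2 difference of 0.57 ± 0.21 that was not called (limma adjusted p = 0.099). On its other side the nearest gene both measured and tested was AT2G40020, which lies 9 genes away and had 0.26 ± 0.21. Beside RCA, AT2G39725 had 0.12 ± 0.16 and AT2G39750 had -0.20 ± 0.13, and neither was called (limma adjusted p = 0.69 and 0.36).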

How the data were processed

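The deposited table holds the authors' intensity values, linear numbers for 22746 probe sets, besides 64 controls, on each of 4 arrays. Their scaling was read from the values: trimmed of the extreme values at both ends, the array means were 500.033 to 500.036. The sources used here do not give the software behind them. Probe sets were named from the platform annotation, with symbols brought up to date by gene ID from the TAIR10.1 table. The annotation pairs 13513 probe sets with 1 gene, 503 with several and leaves 8730 unnamed.

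Intensities were floored at 23.5, their 20th percentile, and log2 values were taken. The dimmest 30 percent of probe sets were left out, leaving 15922. SD30_LD7 was set against SD30 with limma 3.58.1 under R 4.3.3 (intensity trend, two-sided, 2 residual and 9.9 prior degrees of freedom), with Benjamini-Hochberg adjustment over all probe sets tested and a threshold of 0.05. The number of arrays limits the precision. Python 3.11.15 and matplotlib 3.10.9 made the figures.

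The genes and lists were chosen with earlier results of these data known. Named beside the 3 genes were called genes, extremes and bright members of each list, close relatives, and the nearest patterns. The motif search that had been planned was not run, since no promoter sequences were used here. Alternatives changed the floor, the filter, the scaling, the variance model, the replicate block and the arrays used.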

Additional observations from a re-analysis of the deposited data

How the results depend on the processing

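With 2 arrays a group, leaving out an array leaves a lone array that is assumed to vary like those of the other group. Of the 13 alternatives run, those of the floor percentile, filter, variance model and replicate block could not alter the differences of LHCB4.3, RCA and PORB. The intensities of these genes lay above each floor. With the other scalings, the pseudocount or 1 array left out, PORB and RCA stayed below 0 and LHCB4.3 above 0. Beside an SE of 0.16, LHCB4.3 moved by more than the SD of 0.046 between its replicate log2 values, to 1.77 with median centring, 1.78 with quantile normalization and 1.501 with a pseudocount of 32. Leaving out 1 array gave 1.68 to 1.75 for LHCB4.3, -0.87 to -0.72 for PORB and -0.68 to -0.16 for RCA. Calls depended more on the settings. Of the other 17 photosynthesis genes, 3 were called lower by limma. This was 0 without a filter, without the intensity trend or when the floor was the 40th percentile, 1 with median centring, and 0 to 2 without 1 array. Over all probe sets, 1083 were higher and 1305 lower. Leaving out 1 array gave 475 to 615 higher and 583 to 879 lower, no filter 44 and 108, and a 40th percentile floor 188 and 255. Fitting no intensity trend left 596 higher, and with the dimmest 50 percent dropped 798 were lower. After median centring 1302 were higher and 1049 lower. The cause of these changes was not tested. The labels give both groups replicates 1 and 2 without saying what a number shares. The deviations of same-numbered arrays correlated at 0.047 across all probe sets tested. Among the 20 photosynthesis genes, though, replicate 1 was the higher for 17 in SD30 and for 16 in SD30_LD7. With the replicate number as a block, limma called 6 of the 17 genes lower, CHLI2 (limma adjusted p = 0.028), PSBW (0.040) and ATPC1 (0.044) in addition. In this layout a block can change the SE of a difference but not the difference. The SE of RCA went from 0.149 to 0.113, that of PORB from 0.110 to 0.093, and that of LHCB4.3 stayed at 0.164. Averaging a gene's probe sets was not run, as each gene had 1.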
